A study of Mus musculus with 3 samples.

Results

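The genes induced by type I interferon were followed in stromal cells of mouse inguinal fat. They were taken by name from a fixed list of 39 genes, of which 37 were among the 32285 genes counted, and Mx1 and Mx2 were not analysed here. The list was proposed with earlier results of these data known, and which values entered that choice is not recorded. Counts and medians over the list are therefore descriptions, and no test of the list as a whole was made. The cells were the CD31- CD45- stromal vascular fraction of the subcutaneous inguinal depot of male wild-type C57BL/6J mice of 8 weeks. This fraction is what collagenase digestion leaves once floating adipocytes and red cells are removed, and the sort takes off endothelial cells and leukocytes. Each of 3 mice gave 1 droplet library, and there was 1 condition with no named treatment, so that no groups of mice were compared. The comparisons are between classes of cells of the same mice. Their p-values rest on how much the differences between classes vary over these 3 animals, and not on the spread of levels between animals. The estimate of that variation was shared over the 3 classes and drawn towards that of other genes. A p-value thus does not come from the values of 1 gene alone.

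Type I interferons are cytokines made on sensing foreign nucleic acids, and nearly all cells carry their receptor. The receptor's kinases phosphorylate transcription factors such as STAT2, which with IRF9 bind a promoter element called the interferon-stimulated response element (ISRE) and switch on genes that block viral replication. Many of these genes are also transcribed at a low level in tissue that is not infected, and single cells in such a tissue can differ in how many of them they express.

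After barcodes with 500 genes or fewer, or with 5% or more of mitochondrial counts, were left out, 12984, 6414 and 15179 cells remained in mice 1, 2 and 3. The 3 classes, each named after the adipogenic lineage, were gated on raw counts of unique molecular identifiers (UMIs). Progenitors held at least 3 UMIs of Dpp4 and Pi16 together, preadipocytes at least 4 of Icam1 and Fabp4 together, and regulatory cells at least 1 each of Clec11a and Fmo2, while Icam1 and Fabp4 together were limited to 1 UMI in progenitors, Dpp4 to 1 in preadipocytes, and Fabp4 and Dpp4 to 1 each in regulatory cells. None of these 6 genes is on the list, though their levels may still vary with those of the listed genes. The gates held 7399, 3169 and 9273 progenitors, 2278, 1394 and 1889 preadipocytes and 270, 384 and 404 regulatory cells. Mouse 2 stood apart with fewer and deeper cells, its kept cells having a median of 12192.5 UMIs against 7392.5 and 6667. The gates need UMIs, so depth differed between classes as well: regulatory cells of the 3 mice had medians of 4945, 10104.5 and 4575 UMIs and preadipocytes 8083, 12977 and 7296. Levels are UMIs summed per mouse and class, scaled to a common total (CPM). The regulatory sums were the smallest, from 1424350 to 3697369 UMIs, and give the least precise levels.

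The names of the gates were checked against marker genes that the gates did not use. Progenitor markers summed to 3468 to 4503 CPM in progenitors and to at most 772 CPM in the other classes. Preadipocyte markers summed to 2923 to 3572 CPM in preadipocytes and to at most 1396 CPM elsewhere. Most of this sum came from Lpl, and 1 of the 5 preadipocyte markers did not pass against progenitors in the test described further on. Regulatory markers summed to 2182 to 2701 CPM in regulatory cells and to at most 404 CPM elsewhere. Markers of other cell types were low but not absent, including those of the endothelial cells and leukocytes that the sort should remove. The 7 endothelial markers summed to 2.61 to 8.55 CPM in progenitors, 4.20 to 60.9 CPM in preadipocytes and 4.60 to 5.68 CPM in regulatory cells. The 11 leukocyte markers summed to between 4.00 and 24.6 CPM in all classes. Of these, Siglech had no UMI in any class, Cd3e none in progenitors and regulatory cells, and Ctss none in regulatory cells, as did the endothelial marker Kdr. The 6 mural markers summed to 15.9 to 26.1 CPM in progenitors, 62.6 to 90.7 CPM in preadipocytes and 50.8 to 100.2 CPM in regulatory cells, and the 4 globin genes to 0.702 to 26.3 CPM. Abcc9 led the mural markers. Outside the high cells described below, it averaged 36.7 CPM over mice and classes, and the next, Notch3, 5.11 CPM. Pairs of libraries shared 52 to 81 cell barcodes of the 6872 to 16220 in a library.

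The promoter windows of 7 genes are shown because these genes carry the 2 patterns described further on, a difference between classes and a difference between cells of a class. The windows come from RefSeq on GRCm38.p6 and run from 250 bases before the annotated start to 50 bases after it, 5′ to 3′ on the gene's strand. Capitals mark the letters of the ISRE as searched here, GAAANNGAAA or, read on the other strand, TTTCNNTTTC. Ifit1 (chr19:34640639-34640938, + strand), Ifit3 (chr19:34583279-34583578, + strand) and Ifit3b (chr19:34607707-34608006, + strand) encode tetratricopeptide proteins that bind foreign RNA.
Ifit1: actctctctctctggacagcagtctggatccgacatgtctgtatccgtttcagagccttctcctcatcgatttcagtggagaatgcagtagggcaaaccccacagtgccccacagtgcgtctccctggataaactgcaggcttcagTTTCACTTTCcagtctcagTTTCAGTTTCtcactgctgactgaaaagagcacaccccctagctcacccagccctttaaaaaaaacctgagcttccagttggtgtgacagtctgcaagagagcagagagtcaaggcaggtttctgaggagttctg
Ifit3: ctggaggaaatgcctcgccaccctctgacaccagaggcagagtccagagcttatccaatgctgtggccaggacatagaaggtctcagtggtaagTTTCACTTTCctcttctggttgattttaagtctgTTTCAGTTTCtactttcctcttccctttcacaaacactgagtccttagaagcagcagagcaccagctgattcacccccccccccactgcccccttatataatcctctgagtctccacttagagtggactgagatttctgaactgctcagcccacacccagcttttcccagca
Ifit3b: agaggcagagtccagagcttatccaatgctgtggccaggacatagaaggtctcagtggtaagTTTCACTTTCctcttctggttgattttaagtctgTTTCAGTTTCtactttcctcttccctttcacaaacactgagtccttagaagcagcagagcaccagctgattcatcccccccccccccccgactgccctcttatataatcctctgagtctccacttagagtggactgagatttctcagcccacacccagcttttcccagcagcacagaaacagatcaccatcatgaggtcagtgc
Each Ifit window held 2 copies, and the windows of the neighbours Ifit3 and Ifit3b shared an unbroken run of 169 letters that holds both copies. Isg15 (chr4:156200769-156201068, - strand) encodes a ubiquitin-like protein and held 3 overlapping matches. Rsad2 (chr12:26456403-26456702, - strand) encodes viperin, an enzyme that makes a chain-ending nucleotide.
Isg15: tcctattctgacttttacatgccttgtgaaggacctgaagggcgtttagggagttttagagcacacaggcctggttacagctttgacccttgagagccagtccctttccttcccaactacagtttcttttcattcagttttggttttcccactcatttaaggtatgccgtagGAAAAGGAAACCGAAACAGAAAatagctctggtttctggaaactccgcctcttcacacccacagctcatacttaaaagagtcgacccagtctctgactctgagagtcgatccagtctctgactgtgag
Rsad2: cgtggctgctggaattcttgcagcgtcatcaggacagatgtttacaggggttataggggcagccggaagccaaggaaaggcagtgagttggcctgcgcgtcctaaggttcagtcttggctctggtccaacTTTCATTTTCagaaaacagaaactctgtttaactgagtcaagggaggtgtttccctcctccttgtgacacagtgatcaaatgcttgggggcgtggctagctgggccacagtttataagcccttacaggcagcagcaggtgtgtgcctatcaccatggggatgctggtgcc
Slfn5 (chr11:82951852-82952151, + strand), of the Schlafen family, and Phf11b (chr14:59341281-59341580, - strand), of a family of PHD-finger proteins, held 1 match each. They differed between progenitors and preadipocytes in opposite directions.
Slfn5: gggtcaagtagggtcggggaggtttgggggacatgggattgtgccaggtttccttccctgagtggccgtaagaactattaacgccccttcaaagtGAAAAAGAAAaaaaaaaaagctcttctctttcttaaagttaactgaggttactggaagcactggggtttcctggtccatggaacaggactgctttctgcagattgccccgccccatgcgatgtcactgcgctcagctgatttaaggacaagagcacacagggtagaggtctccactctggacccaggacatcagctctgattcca
Phf11b: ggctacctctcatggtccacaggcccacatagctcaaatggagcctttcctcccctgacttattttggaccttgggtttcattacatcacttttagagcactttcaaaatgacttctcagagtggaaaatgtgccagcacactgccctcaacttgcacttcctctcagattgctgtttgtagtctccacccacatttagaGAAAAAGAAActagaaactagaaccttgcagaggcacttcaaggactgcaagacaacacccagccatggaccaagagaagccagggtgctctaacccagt
Of the 37 genes, 30 had a window in RefSeq, and 15 of these 30 (50%) held the ISRE letters, against 3.92% of all 20267 genes with a window. The letters TTCNNNGAA, known as the gamma-activated site, were in a window of 6 of the 30 genes (20%), against 9.35% of all genes. A gene with several windows counted if any of them matched. A match is a description of letters and not a bound site.

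Preadipocytes and progenitors differed at most of the genes, in both directions. All 37 genes passed the filter on low counts. At an adjusted p under 0.05 in edgeR's quasi-likelihood test, 17 were higher and 12 lower in preadipocytes, and 8 did not pass. These 29 of 37 genes stand beside 55.6% of all 13707 genes tested, of which 26.7% were higher and 28.9% lower. The median log2 fold was 0.17 over the list and 0.00 over all genes tested. In 20 of the 37 genes the levels of the 3 mice did not overlap between the classes, against 43.7% of all genes. The plot of levels by class and mouse shows each gene.

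**Figure D1:**
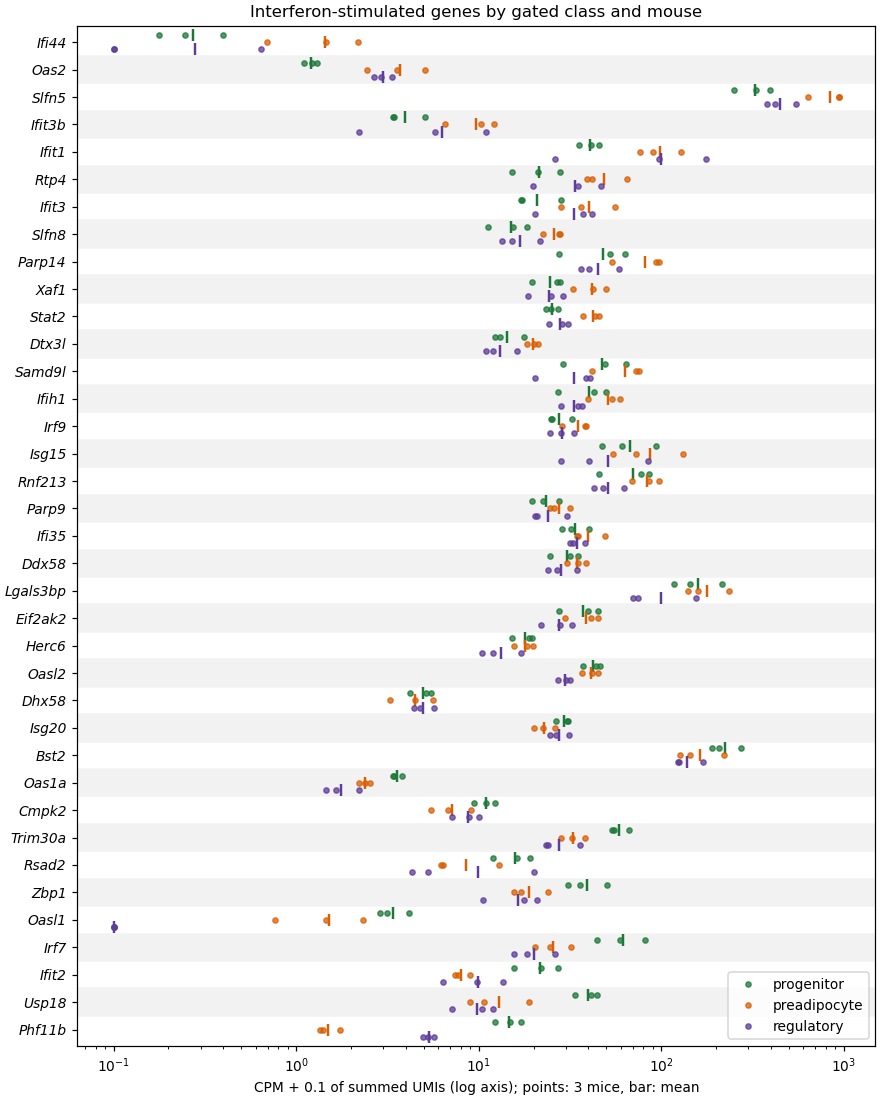
Levels of the 37 interferon-stimulated genes in progenitors, preadipocytes and regulatory cells, as CPM of summed UMIs plus 0.1 on a log axis, with a point per mouse and a bar at the mean of 3 mice. Phf11b and Usp18 lay higher in the progenitors of every mouse than in any preadipocyte sum, and Slfn5 lay lower.

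Among the genes lower in preadipocytes, Phf11b measured 14.8, 16.9 and 12.1 CPM in the progenitors of mice 1, 2 and 3 and 1.30, 1.64 and 1.25 CPM in their preadipocytes. The groups did not overlap, and the fitted log2 fold was -3.44 with an SE of 0.15 (10.8-fold lower, adjusted p = 1.11e-09 in edgeR's quasi-likelihood test). Usp18, the protease that removes ISG15 from proteins and also blocks the interferon receptor, measured 41.2, 44.4 and 33.5 CPM in progenitors and 10.6, 18.8 and 8.92 CPM in preadipocytes. It was 3.30-fold lower, without overlap (log2 fold -1.72, SE 0.13, adjusted p = 1.88e-07 by the same test). Irf7, the transcription factor that amplifies type I interferon production, measured 59.2, 81.3 and 44.6 CPM in progenitors and 24.6, 32.0 and 20.3 CPM in preadipocytes, 2.49-fold lower (log2 fold -1.31, SE 0.06). Ifit2 was 2.76-fold lower, with 27.2, 15.6 and 21.9 CPM in progenitors and 8.86, 7.66 and 7.37 CPM in preadipocytes. Zbp1, a sensor of left-handed nucleic acids that can start cell death, was 2.16-fold lower, and Trim30a, a member of the tripartite-motif ubiquitin ligases, 1.87-fold lower. Bst2, or tetherin, which holds budding virions at the cell surface, was 1.44-fold lower, and the exonuclease gene Isg20 1.34-fold lower. Oasl1 (2.39-fold) and Oas1a (1.58-fold), of the oligoadenylate synthetase gene family, were lower at levels of under 5 CPM.

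Rsad2 and Cmpk2, neighbours on chromosome 12, were lower too, but not in the same way. Rsad2 measured 16.2, 11.8 and 19.1 CPM in progenitors and 6.30, 12.9 and 6.12 CPM in preadipocytes. It was lower in mice 1 and 3 and slightly higher in mouse 2, so the groups overlapped (log2 fold -1.02, SE 0.31, adjusted p = 0.0145 by edgeR's test). Without mouse 1 the log2 fold was -0.72 (adjusted p = 0.0605), and without mouse 3 it was -0.67 (adjusted p = 0.155). Cmpk2, a mitochondrial nucleotide kinase, had a log2 fold of -0.69 (SE 0.18), and -0.38 without mouse 1 (adjusted p = 0.0562) and -0.65 without mouse 3 (adjusted p = 0.0524).

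Among the genes higher in preadipocytes, Slfn5 measured 395, 249 and 333 CPM in progenitors and 945, 640 and 942 CPM in preadipocytes. The groups did not overlap, and the fitted fold was 2.48 (log2 fold 1.31, SE 0.09, adjusted p = 1.04e-07 in edgeR's quasi-likelihood test). Slfn8, next to it on chromosome 11, was 1.68-fold higher, though reads of near-identical Schlafen copies cannot always be told apart. Ifit1 measured 41.1, 45.8 and 35.4 CPM in progenitors and 90.6, 128 and 76.7 CPM in preadipocytes (2.26-fold higher, log2 fold 1.18, SE 0.23). Ifit3 (1.82-fold) and Ifit3b (2.32-fold) were higher as well, so that Ifit2 differed in direction from its neighbours on chromosome 19. Reads cannot always be told apart between Ifit3 and Ifit3b, and their values are uncertain to that extent.

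Rtp4, a chaperone of receptors at the cell surface, measured 21.1, 28.0 and 15.2 CPM in progenitors and 41.7, 65.2 and 39.3 CPM in preadipocytes, 2.19-fold higher without overlap. Stat2, a transcription factor of the receptor's signal, measured 27.1, 23.4 and 24.8 CPM against 45.7, 37.2 and 43.5 CPM and was 1.61-fold higher. Irf9, the DNA-binding partner of STAT2, was 1.22-fold higher, which did not pass without mouse 3 (log2 fold 0.17, adjusted p = 0.238). Xaf1, an antagonist of inhibitors of apoptosis, was 1.63-fold higher, and Parp14, an ADP-ribosyltransferase, 1.67-fold. Dtx3l, whose protein works in a complex with that of Parp9, was 1.34-fold higher, while Parp9 did not pass the test. The genes lie on opposite strands of chromosome 16 and overlap at their 5′ ends. Oas2, which makes the oligoadenylate that activates RNase L, measured 1.11 ± 0.0977 CPM in progenitors and 3.60 ± 1.31 CPM in preadipocytes (SD, n = 3, 3.04-fold higher without overlap). Ifi44, at 0.0782 to 0.298 CPM in progenitors and 0.589 to 2.08 CPM in preadipocytes, was 6.58-fold higher by the fit, from only 16, 3 and 9 UMIs in progenitors and 25, 38 and 8 in preadipocytes.

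Ifih1, which encodes the RNA sensor MDA5, was 1.24-fold higher in preadipocytes, while Ddx58 (RIG-I) and Dhx58 (LGP2) did not pass. Isg15 measured 60.6, 94.2 and 47.2 CPM in progenitors and 72.3, 132 and 54.5 CPM in preadipocytes. Its log2 fold of 0.26 (SE 0.10, adjusted p = 0.0385 by edgeR's test) came with overlapping groups, and it was 0.18 without mouse 2 (adjusted p = 0.224) and 0.32 without mouse 3 (adjusted p = 0.0742). Ifi35 lost its call likewise without mouse 2 or mouse 3, with log2 folds of 0.15 in both. Herc6, the mouse ligase for ISG15, and Eif2ak2, the kinase PKR that halts translation, did not pass, and neither did Oasl2, Lgals3bp and Rnf213. The plot of fitted folds shows these beside the genes that passed.

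**Figure D2:**
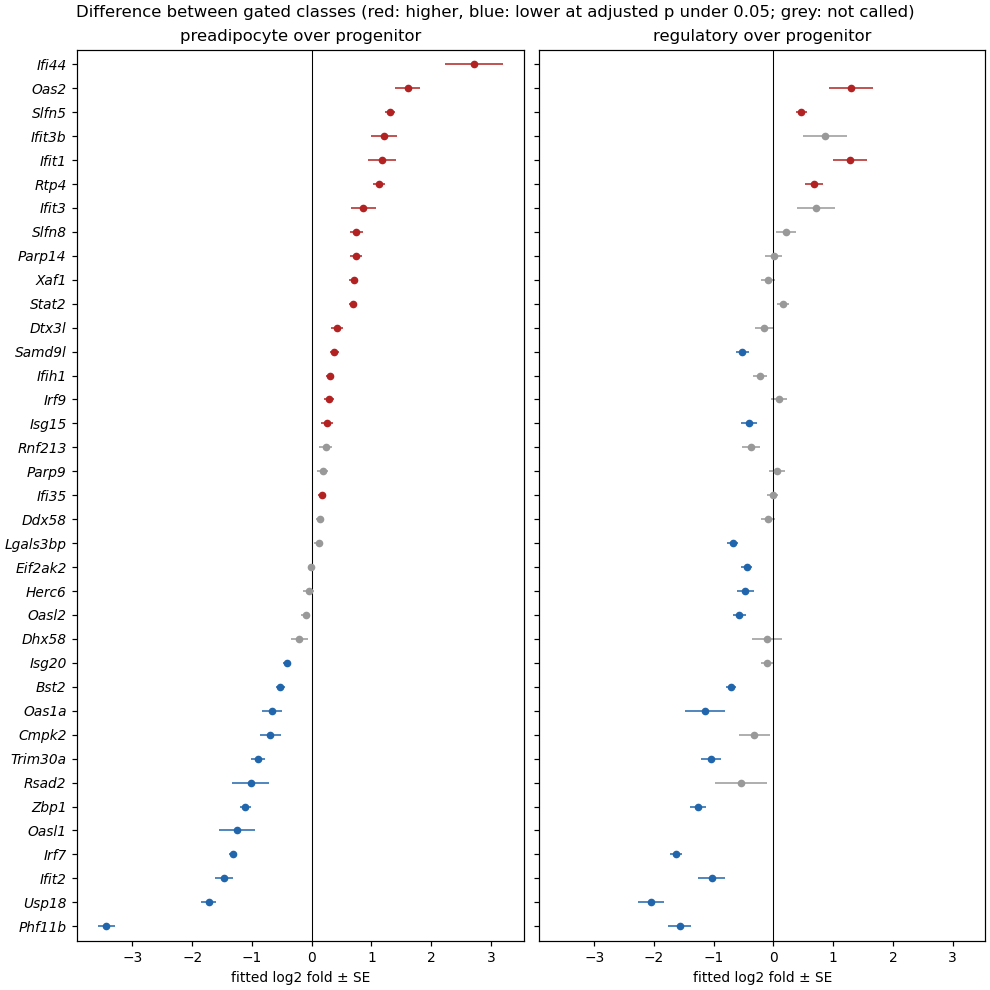
Fitted log2 fold with its SE for the 37 genes in preadipocytes and in regulatory cells over progenitors, from edgeR's fit with mouse as a block. At an adjusted p under 0.05, 17 genes lie to the right of 0 and 12 to the left for preadipocytes, and 4 to the right and 15, counting Oasl1, to the left for regulatory cells. Oasl1 and Ifi44, with no UMI in regulatory cells of all 3 and of 2 mice, are not drawn in the second panel.

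Endothelial and mural markers moved with this contrast: 6 of 7 endothelial and 5 of 6 mural markers were higher in preadipocytes than in progenitors. Without the cells that held a UMI of an endothelial or leukocyte marker, a choice made after seeing the data, 18 of the 37 genes were higher and 12 lower, and all 29 earlier calls kept their direction and stayed past the threshold. The share over all genes without these cells is not given here. Immediate early genes, known to be switched on by the digestion of tissue, moved too: 8 of 11 were higher and 1 lower in preadipocytes, and likewise in regulatory cells, than in progenitors. The median mitochondrial percentage was 1.29, 1.93 and 1.48 in progenitors, 1.67, 2.69 and 2.01 in preadipocytes and 1.82, 2.59 and 1.96 in regulatory cells of mice 1, 2 and 3. The part of mural cells, of digestion and of mitochondrial content in the result was not tested.

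In regulatory cells more genes of the list were called lower than higher, while 18 did not pass against progenitors and 20 against preadipocytes. Against progenitors, 4 were higher and 15 lower, beside 42.1% of all genes called (18.1% higher and 24.0% lower), and 11 of 37 did not overlap, against 38.1% of all genes. Against preadipocytes, 1 was higher and 16 lower, beside 25.5% of all genes (11.9% higher and 13.5% lower), and 13 did not overlap, against 27.4%. Most calls against preadipocytes did not hold in every setting. Genes lower numbered 7 in cells thinned to 3000 UMIs, 10 to 13 on leaving out a mouse and 3 without mouse as a block. They numbered 7 without the cells high for a set of genes described below, where cells under 3000 UMIs were left out too. Shares over all genes in these settings are not given here, so a general loss of calls is not told apart. The median log2 fold was -0.22 against progenitors, where that of all genes was -0.06, and -0.35 against preadipocytes, where that of all genes was -0.05. Both contrasts use the same regulatory sums and are not independent of each other.

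Oasl1 had no UMI in the regulatory cells of any mouse, against 495 UMIs in progenitors (3.22 CPM) and 75 in preadipocytes (1.49 CPM). With 3 counts over the class as the floor, it was at least 7.57-fold lower than in progenitors and at least 3.51-fold lower than in preadipocytes. Usp18 measured 7.02, 11.9 and 10.3 CPM in regulatory cells, from 10, 44 and 20 UMIs, all below the progenitors of any mouse (4.14-fold lower, log2 fold -2.05, SE 0.22, adjusted p = 9.85e-06 in edgeR's quasi-likelihood test). Irf7 measured 18.3, 26.2 and 15.5 CPM and was 3.10-fold lower than in progenitors. Zbp1 (2.39-fold), Trim30a (2.06-fold), Ifit2 (2.05-fold) and Bst2 (1.64-fold) were lower than in progenitors as well. Of these 6 genes, Irf7 was called lower than in preadipocytes too, 1.25-fold, a call that was lost on leaving out any 1 mouse (adjusted p = 0.162, 0.258 and 0.128 without mice 1, 2 and 3). The other 5 did not pass against preadipocytes.

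Phf11b took an intermediate level, with 5.62, 4.87 and 5.17 CPM in regulatory cells. It was 2.97-fold lower than in progenitors and 3.65-fold higher than in preadipocytes, and the 3 classes did not overlap. It was the only gene of the list called higher in regulatory cells than in preadipocytes. Slfn5, at 423, 380 and 547 CPM, was intermediate in the other direction, overlapping with progenitors only, 1.38-fold higher than in progenitors and 1.79-fold lower than in preadipocytes. Lgals3bp, a secreted galectin-binding glycoprotein, measured 70.2, 155 and 74.9 CPM in regulatory cells and 145, 216 and 117 CPM in progenitors, 1.61-fold lower though the ranges overlapped between mice. Samd9l, an antiviral translation repressor, was 1.43-fold lower than in progenitors and 1.86-fold lower than in preadipocytes.

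Ifit1 varied widely between mice in regulatory cells. It measured 99.9 ± 75.1 CPM there (SD, n = 3), from 37, 651 and 189 UMIs in mice 1, 2 and 3, which spanned the values of both other classes. The fitted log2 fold over progenitors was 1.28 (SE 0.28, adjusted p = 0.00271 by edgeR's test), and 0.78 without mouse 2 (adjusted p = 0.131). Rtp4 (log2 fold 0.68) and Oas2 (1.30) were also called higher than in progenitors, and without mouse 2 they measured 0.69 (adjusted p = 0.0708) and 1.37 (adjusted p = 0.0835). Slfn5 alone kept its call without mouse 2, whereas without mouse 1 the number of genes called higher was 8. Shares over all genes without a mouse are not given here. Ifi44 had no UMI in regulatory cells of mice 1 and 3 and 2 UMIs in mouse 2, and Oas1a had 3, 5 and 3 UMIs.

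Genes around the list were read from lists of the pathway, whose counts stand beside the 55.6% of all genes called for preadipocytes and 42.1% for regulatory cells over progenitors. The ligands were hardly seen: Ifnb1 had 22 UMIs in progenitors (0.143 ± 0.0276 CPM, SD, n = 3) and none in the other classes, and no gene of 10 ligands passed the low-count filter. Of the receptor chains, Ifnar1 measured 33.3 ± 7.60, 34.5 ± 9.52 and 29.2 ± 5.61 CPM (SD, n = 3) in progenitors, preadipocytes and regulatory cells and passed in no contrast. Ifnar2 measured 95.6 ± 8.39, 116 ± 8.61 and 136 ± 15.0 CPM in the same order, with log2 folds of 0.22 for preadipocytes and 0.49 for regulatory cells over progenitors. Of 9 tested genes of the receptor, its kinases and signal transducers, 6 were higher and 2 lower in preadipocytes than in progenitors, and 2 were higher and 3 lower in regulatory cells.

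Of 10 genes for innate immune sensors, their adaptors, their kinases and the factor Irf3, 3 were higher and 3 lower in preadipocytes. Tmem173, which encodes STING, was higher (log2 fold 1.12), and Tlr4, the receptor for bacterial lipopolysaccharide, lower (-0.67). Of 4 other interferon regulatory factors, Irf1 (log2 fold 1.05) and Irf8 (3.15) were higher in preadipocytes, and in regulatory cells also (0.84 and 3.13). Irf2 was lower in both (-0.17 and -0.31). Of 6 feedback inhibitors, 2 were higher and 3 lower in preadipocytes than in progenitors, and 3 were higher and 2 lower in regulatory cells. Socs1 and Socs3 were higher in preadipocytes (log2 folds 0.86 and 0.88) and in regulatory cells (1.43 and 1.45) than in progenitors. The phosphatase genes Ptpn2 (log2 folds -0.51 and -0.65) and Ptpn11 (-0.48 and -0.69) were lower in both, and Pias1 was lower in preadipocytes (-0.45) and higher in regulatory cells (0.36).

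Genes known above all from the response to interferon gamma were mostly higher in preadipocytes. Of 12 tested, 9 were higher and 3 did not pass, and in regulatory cells 6 were higher and 2 lower than in progenitors. Cxcl9, a chemokine for T cells, measured 6.25 ± 2.44, 155 ± 22.4 and 25.8 ± 6.62 CPM (SD, n = 3) in progenitors, preadipocytes and regulatory cells, with log2 folds over progenitors of 4.59 and 1.96. The immunity-related GTPases Iigp1 (log2 fold 2.49) and Irgm1 (2.02) and the guanylate-binding protein gene Gbp2 (1.45) were higher in preadipocytes. Of 25 other tested type I genes, 11 were higher and 5 lower in preadipocytes, and 8 were higher and 7 lower in regulatory cells than in progenitors. Ifitm1, an inhibitor of virus entry, measured 32.5 ± 16.5 CPM in regulatory cells against 1.65 ± 0.729 CPM in progenitors (log2 fold 4.23). Ifi27l2a was lower in preadipocytes (log2 fold -1.24) and regulatory cells (-1.60).

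The spread between cells was read next, since a class level can come from many cells or from few. Each cell was thinned to 3000 UMIs at random, cells with fewer being left out, and a gene counted as detected with at least 1 UMI. This left 18405 progenitors, 5400 preadipocytes and 846 regulatory cells. The median cell had 3 of the 37 genes detected in every mouse and class except regulatory cells of mouse 1, where it was 2. The highest number in a cell was 25. The plot of genes detected per cell shows how the distributions tail off.

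**Figure D3:**
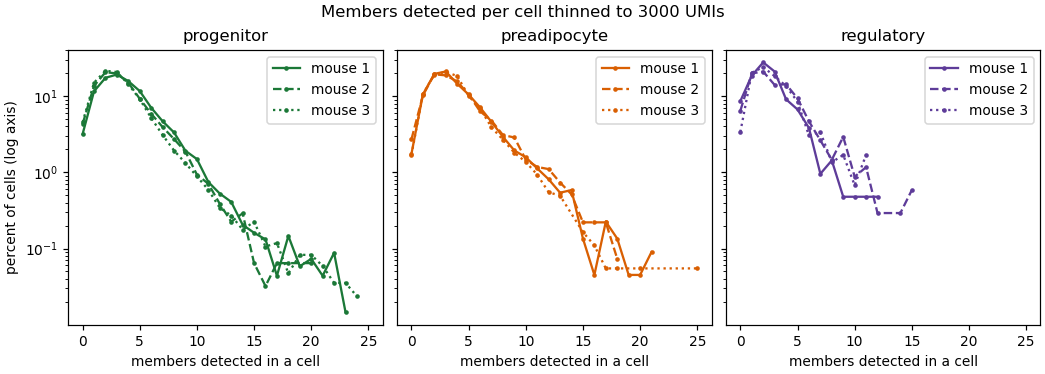
Percent of cells, on a log axis, by the number of the 37 genes detected in a cell thinned to 3000 UMIs, with a line per mouse in each gated class. The median lies at 2 or 3 genes, and progenitors and preadipocytes of each mouse have cells with at least 15 genes.

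To see whether the genes go together in the same cells without reading a gene in cells chosen by it, the list was divided by alternate alphabetical order into a first set of 20 genes and a second set of 17, with Ifit3 and Ifit3b kept together. Cells with at least 5 genes of the first set detected made up 14.0%, 13.6% and 9.36% of progenitors in mice 1, 2 and 3 (mean 12.3% ± 2.58, SD, n = 3). They made up 15.8% ± 3.35 of preadipocytes and 8.27% ± 3.72 of regulatory cells. In these cells the second set summed to 1100, 792 and 1205 CPM in progenitors, against 407, 296 and 351 CPM in the other progenitors of the same mouse. The cells chosen by the first set were thus higher for the second set in every mouse, by 2.94-fold in progenitors (log2 ratio 1.55 ± 0.20, SD, n = 3). The ratio was 2.87 in preadipocytes (log2 ratio 1.52 ± 0.04) and 3.13 in regulatory cells (1.64 ± 0.11). The regulatory value of mouse 1 rests on 9 cells.

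The number of genes detected is a scale without a gap at the limit used. In progenitors of mouse 1, 787 cells held 4 genes of the first set and 440 held 5, of 6829. The high cells were mostly somewhat deeper before thinning. Their median was 7804 UMIs against 7417 in progenitors of mouse 1 and 12900.5 against 12013.5 in those of mouse 2. It was 13303.5 against 12988 in preadipocytes of mouse 2. In regulatory cells of mice 1, 2 and 3 it was 6539 against 5861, 11737 against 10600 and 5049.5 against 5494. Without the cells that held an endothelial or leukocyte UMI the shares were 11.9%, 15.6% and 7.53% and the log2 ratios 1.54, 1.53 and 1.54 in progenitors, preadipocytes and regulatory cells. RNA from broken cells adds UMIs to all droplets, and its part in the difference of the shares between classes was not tested.

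Each gene was then read in the cells with at least 8 of the other genes of the list detected. For Rsad2, for example, such cells were 6.20% to 9.25% of the progenitors and 8.29% to 11.6% of the preadipocytes of a mouse, and 3.35%, 7.60% and 5.42% of the regulatory cells of mice 1, 2 and 3. Of 31 genes at 5 CPM or more, 27 were at least 2-fold higher in the high progenitors of each mouse, where 0.366% of other genes were. In preadipocytes it was 24 of 31 (0.591% of other genes) and in regulatory cells 19 of 29 (0.355%). The level of 5 CPM was read over all cells of a class, so a gene could reach it through its high cells. In preadipocytes, for example, Rsad2 averaged 54.8 CPM in high cells and 2.18 CPM in the others, and Cmpk2 27.5 and 4.51 CPM. Other genes were read in cells with at least 8 genes of the whole list detected, a slightly different choice of cells. These counts thus describe the choice and test nothing. On leaving out a mouse the regulatory cells gave 20 to 23 genes of the list, of 29 to 31, and 0.864% to 2.05% of other genes. With limits of 6 and 10 genes in place of 8, they gave 16 of 29 (0.284% of other genes) and 14 of 29 (0.308%). Progenitors gave 25 (0.251%) and 28 (0.492%) of 31, and preadipocytes 24 (0.352%) and 26 (0.636%) of 31. For Rsad2, the high regulatory cells of mouse 1 numbered 7. At the limit of 8, the median ratio over the list was 3.44, 3.75 and 3.91 in the 3 classes, and over other genes 0.993, 0.935 and 0.896.

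The genes took part to very different degrees, as the plot of ratios in both large classes shows. Rsad2 measured 127, 91.4 and 214 CPM in the high progenitors of mice 1, 2 and 3 and 4.53, 5.10 and 5.79 CPM in the others, a geometric mean ratio of 26.5, and in preadipocytes the ratio was 25.2. Ifit3 was at 21.7 in progenitors and 12.9 in preadipocytes, Ifit3b at 19.0 and 12.1, and Ifit1 at 16.1 and 14.0. Ifi44 was at 22.3 in preadipocytes, from 49 UMIs in the high cells. Isg15, with 304, 502 and 350 CPM in high progenitors and 38.3, 65.9 and 28.9 CPM in the others, had ratios of 7.94, 7.61 and 12.1. At the other end stood Isg20 (1.22 and 1.35), Slfn5 (1.45 and 1.57) and Lgals3bp (1.59 and 1.38). In Slfn5, the high progenitors measured 559, 324 and 507 CPM and the others 383, 245 and 324 CPM. The windows of Ifit1, Ifit3, Isg15 and Rsad2 printed above hold the ISRE letters, and so does that of Slfn5. Those of Ifi44, Cmpk2 (ratios of 6.23 in progenitors and 6.18 in preadipocytes) and Oasl2 (5.46 and 5.54) do not. Those of Isg20 and Lgals3bp do not either.

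**Figure D4:**
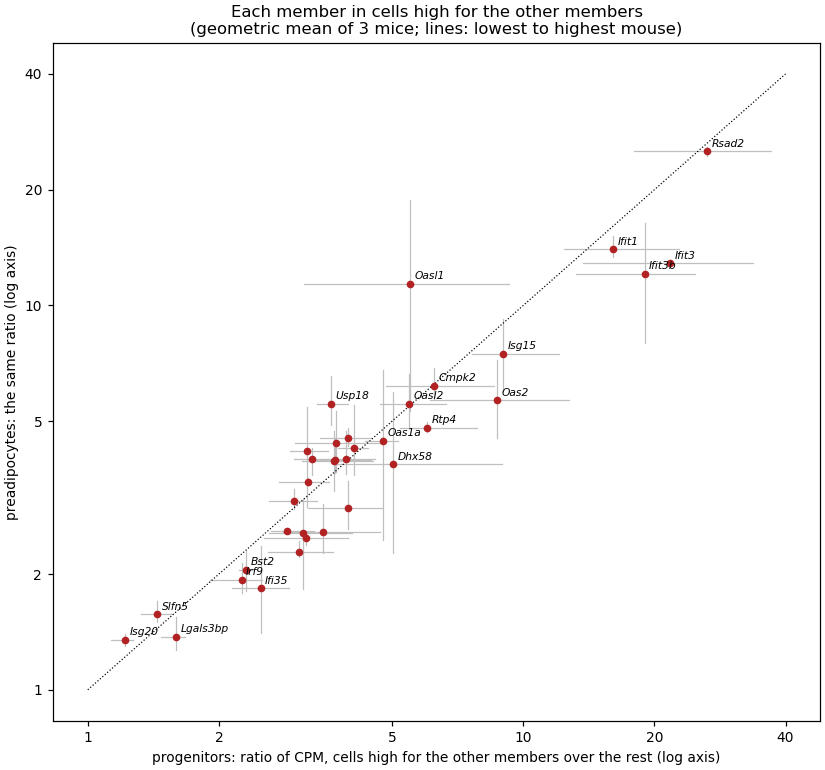
Ratio of a gene's CPM in cells with at least 8 of the other listed genes detected over its CPM in the remaining cells, in progenitors (x axis) and preadipocytes (y axis), both log axes, as the geometric mean of 3 mice with lines from the lowest to the highest mouse. Rsad2 lies at 26.5 and 25.2 and Isg20 at 1.22 and 1.35.

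High cells thus held most of the UMIs of some genes and few of others. They held 68.9% ± 7.77 (SD, n = 3) of the Rsad2 UMIs of progenitors, in 7.58% of the cells, and 74.1% ± 4.31 of those of preadipocytes. They held 55.8% ± 6.28 of the Ifit1 UMIs and 40.2% ± 4.76 of the Isg15 UMIs of progenitors. For Usp18 it was 22.3% ± 3.36 in progenitors and 38.5% ± 6.64 in preadipocytes, and for Slfn5 8.52% ± 1.28 and 11.5% ± 2.25. Most Rsad2 UMIs thus came from the high cells and most Slfn5 UMIs from the others. Without the cells high for the first set, 13 genes were higher and 12 lower in preadipocytes than in progenitors. Cells under 3000 UMIs were left out too, and Ifi44 had no value there. The share over all genes in this setting is not given here, so a general loss of calls is not told apart. Isg15, Ifih1 and Ifi35 no longer passed, and Ifit1 (log2 fold 0.72) and Ifit3 (1.00) did, though Isg15, Ifit1 and Ifit3 are of the first set and helped to choose the cells left out.

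The ratio of variance to mean in thinned cells reads each gene with no use of the others. A ratio of about 1 is what random sampling of a constant level gives. Above 1.5 in each mouse were 5 of 32 genes with enough UMIs in progenitors (3.11% of all genes), 5 of 31 in preadipocytes (3.45%) and 1 of 30 in regulatory cells (3.18%). In progenitors Rsad2 had 7.09, 7.08 and 6.97 and Ifit1 5.27, 4.64 and 4.43 in mice 1, 2 and 3. In preadipocytes Rsad2 had 2.33, 3.58 and 2.69 and Ifit1 5.37, 6.21 and 4.07. Ifit3, Isg15 and Slfn5 were the other genes above 1.5 in both classes, and Slfn5 was the gene of the regulatory cells. At the same relative spread this ratio rises with a gene's level, so it does not rank genes or classes of unlike level. Slfn5 had the highest mean level of the list, 326, 842 and 450 CPM in progenitors, preadipocytes and regulatory cells. The medians over the list were 1.15, 1.24 and 1.09, against 1.02, 1.02 and 0.991 over all genes. The plot of variance to mean against the mean shows the list among all genes.

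**Figure D5:**
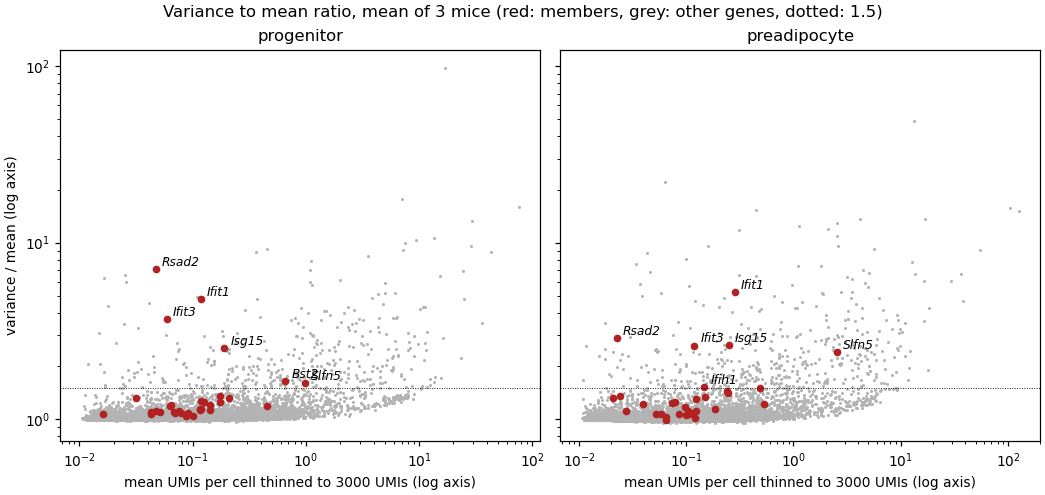
Variance to mean ratio against mean UMIs per cell thinned to 3000 UMIs, both log axes, with a point per gene (mean of 3 mice) and panels for progenitors and preadipocytes, the listed genes in red and other genes in grey. Rsad2 in progenitors, near 7, and Ifit1 stand far above the dotted line at 1.5.

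Genes outside the lists that went with the first set were named by a rule: the largest value of the smallest log2 ratio over the 9 pairs of mouse and class, high cells over others. Genes needed at least 20 CPM in the high cells, and some were below it in the others, so their ratios describe the choice and test nothing. Of the 10 leading genes 2 are not reported here. The other leading genes were Gbp6 (smallest log2 ratio 1.21, mean 1.74), Ifi47 (0.94 and 1.61), Mndal (0.92 and 1.26), Plac8 (0.77 and 1.15), Slfn2 (0.77 and 1.21), Phf11d (0.68 and 1.53), Trim30d (0.60 and 0.98) and Pml (0.56 and 0.92). Gbp6 and Ifi47 encode GTPases, Mndal a protein of the family of DNA sensors of the IFI200 cluster, and Pml the scaffold of PML nuclear bodies.

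The pathway lists were summed whole in the same cells, with no filter on level. The second set summed to 792 to 1205 CPM in high cells and 255 to 407 CPM in the others over mice and classes, and the interferon gamma genes to 1047 to 4381 CPM and 455 to 888 CPM. The log2 ratio of the sums was between 0.98 and 2.96 for the interferon gamma genes and between 0.55 and 0.82 for the other type I genes, so both sums were higher in the high cells of each mouse and class. It was between -0.38 and 0.47 for the receptor and kinase genes, -0.03 and 0.60 for the feedback genes and -0.64 and 0.46 for the immediate early genes, which spans 0. The sums follow their most abundant genes. Single genes with at least 20 CPM in high cells were read as well. Of these, 6 of 10 interferon gamma genes and 5 of 15 other type I genes had a log2 ratio over 0.5 in every mouse and class. The share was 0.702% over all such genes outside the first set. Some of the counted genes were under 20 CPM in the other cells. Gbp3, for example, averaged 50.9 CPM in high cells and 12.2 CPM in the others. These counts thus describe the choice and test nothing. Ifi27, of the other type I genes, averaged -0.14. Endothelial markers summed to 1.76 to 122 CPM in high cells and 2.43 to 9.04 CPM in the others, and leukocyte markers to 3.52 to 27.8 CPM and 3.83 to 26.8 CPM.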

How the data were processed

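Single-cell libraries of 3 mice were made by the submitters with a droplet kit, per the labels with 3′ v2 chemistry. The authors aligned the reads and counted UMIs with Cell Ranger and deposited raw UMI counts per gene and barcode, with gene and barcode names in further files. The file headers name release 4.0.0 and the paper's methods a slightly later one. The submitters' processing notes name 2.1.1 and the mouse build mm10, so the release is uncertain. Reads of near-identical copies cannot always be told apart.

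The genes and lists were chosen with earlier results of these data known. Every gene of the list may be named, as may those of the pathway lists. Some of their values are not reported here. The 10 genes most like the list were taken by their ratio in high cells among genes of at least 20 CPM there, on CPM plus 10. Counts were summed per mouse and gate, cells of 2 gates (49, 119 and 96) being left out; no doublet caller was used. The 9 sums were fitted with edgeR 4.0.16 in R 4.3.3 (filterByExpr, TMM, quasi-likelihood test, mouse as a block, Benjamini-Hochberg over all genes but the 6 gating genes). Fitted folds use TMM scaling, and printed CPM the library size. The gates use the same cells as the tests, so adjusted p-values of genes correlated with the gating genes are too small. In cells high for the first set, Icam1 averaged 241 CPM, against 210 CPM in the others. Its log2 ratio was 0.22 on average and -0.03 to 0.66 over mice and classes. That of Fabp4 averaged 0.12, and the averages of the other gating genes were negative. What this adds to the differences between classes was not tested. Sums of a mouse come from 1 animal: their deviations correlated with Pearson's r of 0.133 to 0.643 across 13707 genes. The fit was tested on simulated data for preadipocytes over progenitors with 13713 genes. It recovered 94 of 100 genes changed 4-fold and 79 of 100 changed 2-fold, with 17 false calls. The simulated counts held no difference between mice and only 200 changed genes, unlike the data, so these rates may not hold for the data. Floors (3 counts) cover counting error only. Promoter windows were matched by symbol. Python 3.11.15, numpy 2.4.6, pandas 2.3.3, scipy 1.17.1, matplotlib 3.10.9 and, for an alternative, DESeq2 1.42.0 were used. Leaving out cells with an endothelial or leukocyte UMI, the reading of each gene in cells high for the others with its limits, and the limit of 15 genes were chosen after seeing the data.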

Additional observations from a re-analysis of the deposited data

How the results depend on the processing

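No called gene reversed in any alternative that gave it a value. Of 64 calls with a value in all 15 alternatives, 24 were kept in all of them: 14 of 28 for preadipocytes over progenitors, 8 of 19 for regulatory cells over progenitors and 2 of 17 for regulatory cells over preadipocytes. Ifi44 in preadipocytes over progenitors had a value in 11 alternatives and was kept in those. Over the called genes and alternatives, 838 results stayed past the threshold and 133 did not. Scaling moved the median of all genes by less than 0.1 on the log2 scale.

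Without the replicate block for mouse, 9 genes were called higher in preadipocytes than progenitors, 1 higher and 9 lower in regulatory cells than progenitors and 3 lower in regulatory cells than preadipocytes. Genes higher in regulatory cells than progenitors numbered 7 with cells of 2 gates kept in both, and 1 to 8 on leaving out a mouse. Genes higher in regulatory cells than preadipocytes were 2 with DESeq2 size factors, a mitochondrial limit of 10%, no top 5% of cells by UMIs, no cells high for the first set or no cells with endothelial or leukocyte UMIs, and 1 to 2 on leaving out a mouse. Genes lower there were 7 in thinned cells and 7 without cells high for the first set, and 10 to 13 on leaving out a mouse. Without cells high for the first set the median log2 fold was 0.061 for preadipocytes over progenitors and -0.162 for regulatory cells over preadipocytes. Shares over all genes in these settings are not given here. A loss in the list is thus not told apart from a general loss of calls. The causes were not tested.

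The share of cells high for the first set follows its limit and depth by construction. In progenitors, preadipocytes and regulatory cells it was 23.0%, 27.5% and 16.3% with at least 4 genes, 3.80%, 5.40% and 2.38% with at least 7, 1.94%, 1.92% and 1.13% when the second set chose the cells, 5.79%, 8.62% and 4.36% at 2000 UMIs and 27.0%, 29.9% and 19.8% at 5000 UMIs. The log2 ratio was 1.24, 1.29 and 1.22 with at least 4 genes, 2.08 and 1.87 with at least 7 in progenitors and preadipocytes, 2.02, 1.69 and 1.78 with the sets exchanged, 1.83, 1.66 and 1.91 at 2000 UMIs and 1.25, 1.31 and 1.43 at 5000 UMIs. With the sets exchanged, the regulatory value rests on 3, 2 and 4 high cells in mice 1, 2 and 3. Their log2 ratios were 1.13, 2.71 and 1.50. Genes with a variance to mean ratio over 1.2 numbered 9 of 32, 12 of 31 and 6 of 30, against 7.05%, 7.03% and 6.42% of all genes. The counts that follow are for a ratio over 1.5. Without cells high for the first set, progenitors gave 1 of 31, near the 3.08% of all genes. Preadipocytes gave 3 of 28 there (3.35% of all genes). At 5000 UMIs, preadipocytes gave 10 of 33 (4.95%) and regulatory cells 3 of 32 (4.21%). On leaving out a mouse, regulatory cells gave 1 to 3 of 31 (3.43% to 3.70%). Regulatory sums limit the depth most.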

Other observations

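A few progenitors held much of the Rsad2 RNA of the class, and less of that of the other genes read. Cells with at least 15 of the 37 genes detected after thinning to 3000 UMIs numbered 52, 9 and 69 in progenitors of mice 1, 2 and 3 (0.761%, 0.290% and 0.815%), and 16, 10 and 9 in preadipocytes. Regulatory cells held 0 of 209, 2 of 342 and 0 of 295, where the counts of 0 allow shares of up to 1.44% and 1.02%. Read without the gene itself in the choice, progenitors with at least 15 of the other genes (48, 9 and 57 cells) held 50.8%, 23.1% and 46.1% of the Rsad2 UMIs of the class, and in preadipocytes such cells held 30.9%, 8.53% and 26.6%. The preadipocyte shares rest on 34, 18 and 21 UMIs, from 7, 6 and 3 cells with the gene. The highest single progenitor of each mouse had 72, 60 and 60 Rsad2 UMIs. The share of Usp18 UMIs in such progenitors was 6.74%, 1.82% and 5.98%, and that of Slfn5 1.44%, 0.356% and 1.38%. For Ifit1 it was 28.0%, 11.6% and 28.5%, for Ifit3 37.2%, 4.77% and 37.6%, and for Isg15 12.6%, 3.16% and 14.6%. Of the cells chosen for Rsad2 in progenitors, 40 of 48, 8 of 9 and 51 of 57 had no UMI of an endothelial or leukocyte marker, and their median depth before thinning was 8093, 11544 and 7141 UMIs against 7473, 12095.5 and 6863.5 in all progenitors. The limit of 15 was chosen after the data were seen, and these values have no test.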
